A study of Oryza sativa with 36 samples.

Results

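The genes described here are 7 rice genes of flavonoid and sakuranetin biosynthesis, out of 38978 genes in the count table. They were chosen by identifier: chalcone synthase (CHS, Os11g0530600), chalcone isomerase (CHI, Os03g0819600), flavanone 3-hydroxylase (F3H, Os04g0662600), flavone synthase II (FNSII, Os04g0101400), flavanone 2-hydroxylase (F2H, Os06g0102100), dihydroflavonol 4-reductase (DFR, Os01g0633500) and naringenin 7-O-methyltransferase (NOMT, Os12g0240900). The count table pairs no identifier with a name. RNA was sequenced from leaf sheaths of rice seedlings fed on by the brown planthopper (BPH), a phloem-feeding insect. The recurrent parent (RP) was the indica cultivar Wushansimiao, and the near isogenic lines (NILs) in its background carried BPH14 (B14), BPH15 (B15) or both genes (B1415). Each line was sampled non-infested (0), at an early stage that pooled sheaths infested for 3 to 12 h and at a late stage that pooled 24 to 72 h, with 3 libraries in each of the 12 groups. Infested seedlings received 8 nymphs each, all seedlings were grown in a greenhouse, and each library held sheaths of 15 seedlings. Hours within a stage cannot be separated, and each genotype was represented by 1 line.

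Flavonoids are built from a phenylpropanoid starter and malonyl units. CHS makes the chalcone, CHI closes it to the flavanone naringenin, and naringenin is a branch point. FNSII turns flavanones into flavones, which in grasses feed tricin; F2H hydroxylates them towards C-glycosyl flavones; F3H leads to dihydroflavonols, which DFR reduces towards anthocyanins and proanthocyanidins. NOMT methylates naringenin to sakuranetin, a rice phytoalexin known for its action against fungi and bacteria.

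The members fell into a well-counted set and a sparse set. CHS, CHI, FNSII and F2H had at least 491 counts in every one of the 36 libraries. F3H had 6 to 30 counts per library, NOMT had 0 to 24 with a count in 31 of 36 libraries, and DFR had 7 counts in all, in 6 libraries. Counts depend on transcript length, which was not used here, so levels were not compared between genes. Library totals ranged from 10601967 to 18692187, and of the 36 libraries, 28 were closest in rank correlation to a library of their own group. The library labelled B14_0 replicate 3 was closest to a B15_0 library, and B14_early replicate 3 and B15_early replicate 1 were closest to each other. All 3 B15_late libraries were closest to a B1415_late library, and B1415_late replicates 2 and 3 to a B15_late library, so the late groups of these lines were not set apart by this measure. Late values are also given without B14_0 replicate 3 and with the libraries of B15_late and B1415_late left out in turn. In bulk tissue, fewer cells of a type and less RNA per cell cannot be told apart. All 6 genes listed for green tissue had counts in 36 of 36 libraries. Of 2 genes listed for seed, Os02g0249900 had no count and Os01g0762500, a glutelin, had 0 to 20.9 CPM (a count relative to the TMM-scaled total of its library), highest in B14_late.

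CHS, the entry enzyme, was counted at 399, 400 and 401 CPM in RP_0. It was counted at 534, 553 and 599 CPM in RP_early and at 425, 486 and 494 CPM in RP_late. Both feeding stages of RP lay above RP_0 without overlap. In B14 it was counted at 432, 448 and 619 CPM before infestation, at 537, 601 and 632 early, and at 239, 265 and 375 late. B14_late was thus the lowest of the 12 groups, and it did not overlap with any other group except B1415_0 and B15_late. In B15 CHS stood at 490, 519 and 528 CPM, then 571, 655 and 674, then 368, 431 and 521. In B1415 it stood at 372, 439 and 473, then 470, 476 and 496, then 406, 424 and 425. Early feeding therefore gave the highest mean of each line, and the late mean lay below the non-infested mean in B14, B15 and B1415 and above it in RP.

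CHI, which forms naringenin, was highest before infestation in every line. In RP it was counted at 671, 673 and 707 CPM before infestation, at 452, 463 and 555 early and at 284, 309 and 364 late. The 3 stages of RP did not overlap. In B14 the non-infested libraries gave 652, 673 and 1435 CPM, the early ones 549, 598 and 716, and the late ones 179, 216 and 312. The value of 1435 belonged to B14_0 replicate 3, the library that stood nearest to B15_0. In B15 CHI stood at 1056, 1383 and 1403 CPM, then 736, 969 and 985, then 323, 414 and 430. In B1415 it stood at 513, 578 and 704, then 435, 441 and 451, then 362, 366 and 407. Only in B14 did the early libraries overlap with the non-infested ones, and the late libraries lay below both in all 4 lines.

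FNSII, the flavone branch enzyme, stood at 110, 111 and 112 CPM in RP_0, at 75.2, 77.4 and 85.5 in RP_early and at 48.6, 53.3 and 54.5 in RP_late. In B14 it stood at 118, 118 and 156 CPM, then 88.5, 92.7 and 105, then 29.5, 31.4 and 38.3. In B15 it stood at 171, 178 and 207 CPM, then 109, 117 and 135, then 38.3, 53.4 and 68.6. The 3 stages were ordered without overlap in each of these lines. In B1415 it stood at 106, 112 and 126 CPM, then 80.1, 87.2 and 88.3, then 43.3, 58.8 and 67.3, again without overlap.

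F2H, which leads to C-glycosyl flavones, was lowest late in every line. In RP it stood at 89.7, 90.5 and 94.1 CPM, then 70.5, 79.2 and 79.4, then 44.5, 49.6 and 55.4. In B14 it stood at 93.1, 97.2 and 126 CPM, then 85.3, 101 and 103, then 40.2, 44.6 and 61.4. The non-infested and early libraries overlapped in B14 and not in RP. In B15 it stood at 134, 137 and 138 CPM, then 108, 120 and 134, then 43.5, 63.7 and 64.6. In B1415 it stood at 81.3, 90.9 and 95.5, then 82.4, 83.2 and 88.8, then 45.6, 57.7 and 62.8. In all 4 lines the late libraries lay below every non-infested and early library of the same line.

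**Figure D1:**
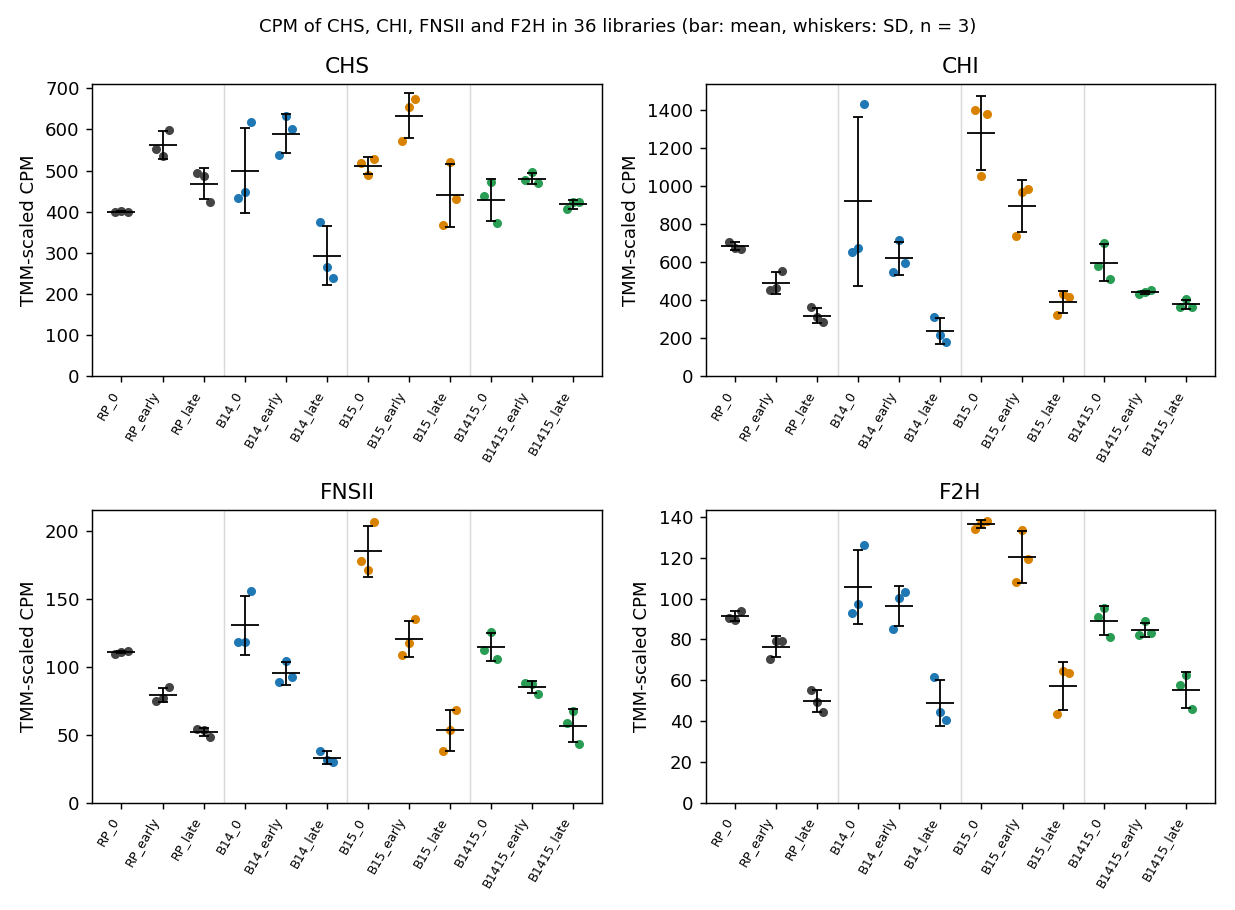
TMM-scaled CPM of CHS, CHI, FNSII and F2H (one panel each, linear axis from 0) in 36 libraries, grouped by line and stage; points are libraries, long bars group means and whiskers the SD (n = 3). The late libraries of CHI, FNSII and F2H lie lowest within each line, while CHS is highest early; one B14_0 library stands at 1435 CPM for CHI.

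The first question was what feeding changed within a line. Across the 8 feeding comparisons, 39 of 56 pairs of member and comparison had enough counts to be tested; of these 5 were called higher and 20 lower at an adjusted p below 0.05 by edgeR's quasi-likelihood test. At the late stage CHI, FNSII and F2H fell in all 4 lines. In RP_late against RP_0, 2 of 5 tested members rose and 3 fell, where 59.2% of all tested genes were called. In B14_late against B14_0, 0 rose and 4 of 5 fell, against 41.1% of genes called. In B15_late against B15_0, 3 of 5 fell and 0 rose, against 61.9%. In B1415_late against B1415_0, 1 of 5 rose and 3 fell, against 37.2%. Of all tested genes, 29.4% rose and 29.9% fell in RP, 20.5% fell in B14, 30.3% fell in B15, and 18.6% each rose and fell in B1415.

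FNSII fell to 0.476 times its non-infested level in RP_late, with a log2 fold change of -1.07 ± 0.07 (SE; adjusted p = 1.2e-12). Its log2 fold change was -1.94 ± 0.18 in B14_late (adjusted p = 0.000386), -1.80 ± 0.18 in B15_late (adjusted p = 2.87e-06) and -1.01 ± 0.15 in B1415_late (adjusted p = 0.000991). CHI fell by a log2 fold change of -1.08 ± 0.08 in RP_late (adjusted p = 6.29e-12) and -0.65 ± 0.14 in B1415_late (adjusted p = 0.00473). In the single-gene NILs the CHI value was -1.73 ± 0.15 in B15_late (adjusted p = 1.54e-06) and -1.94 ± 0.38 in B14_late (adjusted p = 0.00647). The F2H values were -0.68 ± 0.13 in B1415_late, -0.86 ± 0.08 in RP_late, -1.08 ± 0.21 in B14_late and -1.26 ± 0.14 in B15_late, with adjusted p from 5.13e-10 to 0.00603. Relative to non-infested plants of the same line, the late level of these 3 genes ranged from 0.26 times (FNSII in B14) to 0.637 times (CHI in B1415). Without B14_0 replicate 3, the B14_late log2 fold changes were -1.48 for CHI, -1.83 for FNSII and -0.96 for F2H. With each B15_0 or B15_late library left out in turn they ran from -1.87 to -1.61 for CHI in B15_late, from -2.04 to -1.61 for FNSII and from -1.36 to -1.10 for F2H. In B1415_late, with the same done for B1415_0 and B1415_late, they ran from -0.75 to -0.52 for CHI, from -1.15 to -0.85 for FNSII and from -0.77 to -0.55 for F2H. All of these falls were called each time.

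The summed level of the 6 genes listed for green tissue moved with the same groups. It ranged from 12755 to 13141 CPM in RP_0 and from 9904 to 11368 in RP_late, from 13132 to 19601 in B14_0 and from 6443 to 9216 in B14_late. It ranged from 18838 to 21796 CPM in B15_0 and from 9676 to 12805 in B15_late, and from 13365 to 16753 in B1415_0 and from 10830 to 12552 in B1415_late. B14_late was the lowest group for 5 of these 6 genes, as it was for CHS, CHI, FNSII and F2H. In RP the green sum of the early libraries (12181 to 13485 CPM) overlapped with the non-infested ones, while CHI and FNSII did not. Other listed genes moved with the late stage as well. The phloem-listed gene Os03g0170900 had 21.9 to 36.1 CPM in the non-infested and 32.1 to 67.7 CPM in the late libraries of the 4 lines, highest in B14_late, and the 2 seed-listed genes summed to 0 to 1.41 and 6.29 to 20.9 CPM. The 2 root-listed genes summed to 3.08 to 4.38 CPM non-infested and 0.907 to 2.87 late, and the 2 anther-listed genes to 2.23 to 7.30 and 0.843 to 1.43. In each of these 4 lists the late libraries of a line did not overlap with its non-infested ones. The 3 secondary-wall genes summed to 374 to 538 CPM in B14_0 and 434 to 516 in B14_late, which overlapped. Their sum was higher late without overlap in RP (391 to 440, then 532 to 622 CPM). The same held in B15 (466 to 483, then 528 to 621) and B1415 (396 to 424, then 480 to 571). The part of these tissues in the late falls was not tested.

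CHS went different ways in the lines at the late stage. It rose in RP_late by 0.24 ± 0.07 on the log2 scale (adjusted p = 0.00502), a call lost in a single fit of all 36 libraries (adjusted p = 0.177). It fell in B14_late, at -0.74 ± 0.23 (adjusted p = 0.0393), a call that was lost without B14_0 replicate 2 and without B14_late replicate 2 or 3. With 1 library left out, its log2 fold change there ran from -0.98 to -0.58, the latter without B14_0 replicate 3. The log2 fold change was -0.23 ± 0.13 in B15_late and -0.02 ± 0.12 in B1415_late, and neither was called; without B15_late replicate 2 the B15_late value was -0.36 and called.

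At the early stage CHS had 2 calls, both higher, and CHI, FNSII and F2H had 7, all lower. In RP_early against RP_0, 1 of 4 tested members rose and 3 fell (43% of all genes called, 21.3% as rises and 21.7% as falls). In B15_early against B15_0, 1 of 5 rose and 2 fell (23.9% of genes called, 11.5% as rises and 12.4% as falls), and in B1415_early against B1415_0, 2 of 5 fell and 0 rose (27% of genes called, 13.1% as falls). In B14_early against B14_0, 0 of 5 members were called by edgeR, where 1.55% of genes were called; 1 member had an unadjusted p below 0.05 and DESeq2 called 0. CHS rose by 0.51 ± 0.07 in RP_early (adjusted p = 1.25e-06) and by 0.30 ± 0.09 in B15_early (adjusted p = 0.0244). The latter call was lost without B15_0 replicate 1 or 3 or B15_early replicate 2 or 3, with values of 0.25 to 0.38 over all libraries left out in turn. CHI fell in RP, B15 and B1415, with log2 fold changes of -0.52 to -0.41, and so did FNSII, at -0.62 to -0.40. F2H fell in RP, at -0.25 ± 0.07. The CHI call in B15_early was lost without B15_0 replicate 1 and the F2H call in RP_early without RP_early replicate 1, with values down to -0.39 and -0.19. Without B14_0 replicate 3, CHS was 0.45 higher in B14_early (adjusted p = 0.00262) and FNSII was -0.28 (adjusted p = 0.0252), so that both were called there. In B1415_early CHS was called without B1415_0 replicate 2, at 0.26. The single fit of 36 libraries lost 6 of the early calls: CHI in RP, B15 and B1415 (adjusted p of 0.102, 0.0945 and 0.173), FNSII in B1415 (0.0544), F2H in RP (0.215) and CHS in B15 (0.155).

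**Figure D2:**
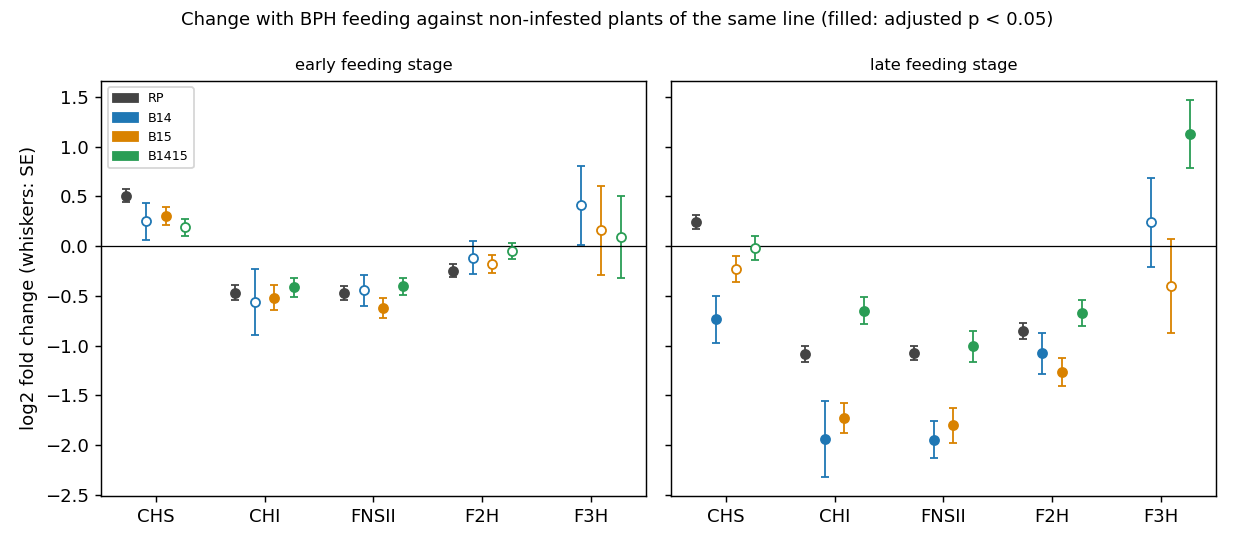
Log2 fold change with BPH feeding against non-infested plants of the same line for the members that passed the filter, early stage on the left and late stage on the right; points are edgeR estimates, whiskers their SE, colours the lines, and filled points have an adjusted p below 0.05. CHI, FNSII and F2H lie below 0 late in all 4 lines, from -1.94 to -0.65, and CHS lies above 0 early; NOMT is not drawn because it passed the filter in RP_late only.

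Ratios of raw counts within a library do not depend on library scaling and differ between groups where members change unequally. For CHI over CHS, non-infested RP had a ratio of 1.71 ± 0.05 (SD, n = 3), against 0.870 ± 0.054 at the early and 0.681 ± 0.051 at the late stage. In the same order of stages it was 2.49 ± 0.29, 1.41 ± 0.10 and 0.889 ± 0.068 in B15 and 1.78 ± 0.47, 1.05 ± 0.07 and 0.799 ± 0.045 in B14. In B1415 it was 1.39 ± 0.09, 0.921 ± 0.036 and 0.904 ± 0.050. In each of the 8 feeding comparisons the 3 fed libraries lay below the 3 non-infested ones. The flavone branch enzymes were compared in the same way. The FNSII to F2H ratio was 1.21 ± 0.03 in RP_0, 1.24 ± 0.03 in B14_0, 1.36 ± 0.13 in B15_0 and 1.28 ± 0.04 in B1415_0, and it was 1.04, 0.992, 1.01 and 1.01 in the early groups of the same lines. At the late stage it was 1.05 in RP, 0.928 in B15, 1.01 in B1415 and 0.687 ± 0.057 in B14. Again no fed library overlapped with the non-infested ones of its line in any of the 8 comparisons. Each comparison had an exact two-sided permutation p of 0.1, the smallest that 3 against 3 libraries allow. The early and late comparisons of a line share its non-infested libraries. The share of other gene pairs whose ratios separate as fully was not computed, so the lack of overlap is a description only.

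**Figure D3:**
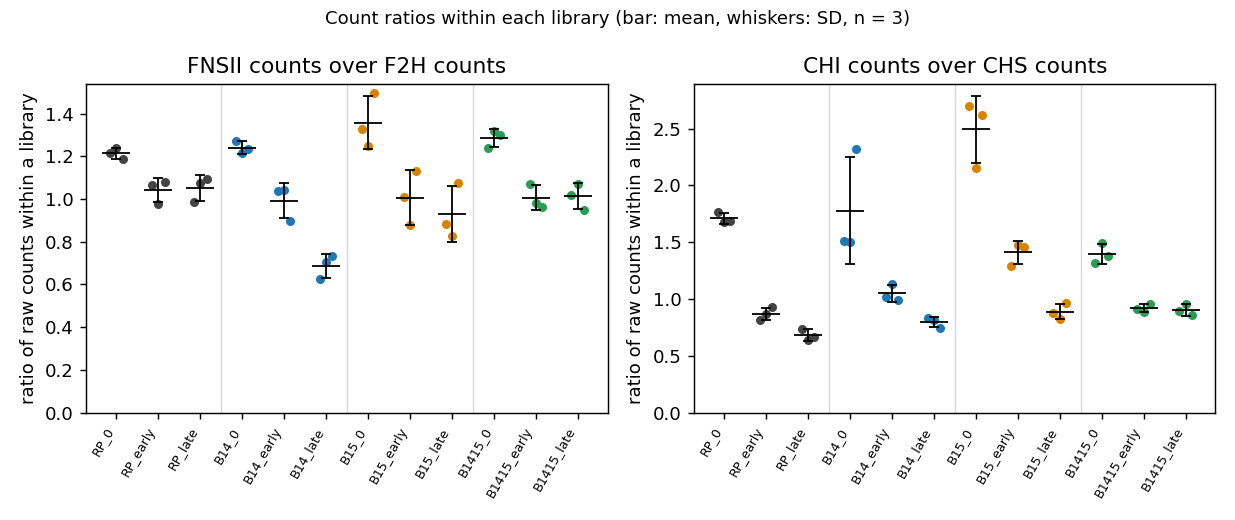
Ratio of raw counts within each of 36 libraries, FNSII over F2H on the left and CHI over CHS on the right (linear axes from 0), by line and stage; points are libraries, long bars means and whiskers the SD (n = 3). Both ratios are highest in the non-infested groups of each line, and FNSII over F2H is lowest in B14_late at 0.687.

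NOMT, the last enzyme of sakuranetin synthesis, was barely counted before infestation in RP, with 0, 1 and 2 counts per library. It had 5, 8 and 12 counts in RP_early and 16, 16 and 24 in RP_late. The RP stages did not overlap. In B14 it had 7, 7 and 8 counts before infestation, 0, 2 and 7 early and 4, 5 and 10 late. In B15 the counts were 0, 0 and 1, then 1, 1 and 5, then 3, 6 and 7. In B1415 they were 0, 2 and 4, then 3, 5 and 7, then 5, 6 and 21. The level was thus lowest without infestation in RP, B15 and B1415, and in B14 the non-infested libraries held 22 counts in all against 9 early and 19 late.

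NOMT passed the filter in 1 of the 8 feeding comparisons. It passed there only through RP_late, the group in which it was high, so its place among the rises counted above carries no weight of its own. In RP_late it was higher by 4.28 ± 0.64 on the log2 scale (adjusted p = 2.2e-06, and 4.01e-09 without the filter). With 1 library left out the value ran from 3.71 to 5.12, the latter without RP_0 replicate 2. Summed over libraries and scaled by depth, 56 counts against 3 gave a ratio of 21.4 with a 95% counting interval of 6.96 to 107. Such intervals cover counting error only. The same ratio was 7.39 (2.26 to 38.2) for RP_early, 4.73 (1.95 to 13.8) for B1415_late and 13.6 (2.11 to 570.2) for B15_late, the last against 1 count. It was 0.845 (0.432 to 1.64) for B14_late. Outside the filter, the 3 libraries of RP_early, B15_late and B1415_late lay above their non-infested ones, with an exact two-sided permutation p of 0.1 each, the smallest possible. The late NOMT changes of B14 and RP differed by -4.52 ± 0.84 on the log2 scale with an adjusted p of 0.0555, which missed the threshold. NOMT entered that test only through RP_late too, and with 1 library left out the value ran from -5.36 (without RP_0 replicate 2) to -3.96. That difference was called without B14_0 replicate 3 (-4.32, adjusted p = 0.0179) and without B14_late replicate 1 (-4.37, adjusted p = 0.0425).

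F3H and DFR, which lead to dihydroflavonols and on to anthocyanins, had few counts. For F3H this holds for the member Os04g0662600 and need not hold for the step. Os10g0536400, listed as a further F3H gene without a check of its annotation, averaged 68.9 CPM with a count in 36 libraries. Values given as F3H are those of Os04g0662600. F3H had 7, 7 and 8 counts in RP_0 and 6, 9 and 19 in RP_late. All 3 B1415_late libraries of F3H reached the filter's minimum, against 2 of 3 in B1415_0. B1415_late, where F3H is high, was thus enough to pass the filter. The place of F3H among the rises counted above therefore carries no weight of its own. F3H had 9 counts in each B1415_0 library and 18, 19 and 30 in B1415_late, where it rose by 1.13 ± 0.34 on the log2 scale (adjusted p = 0.027, and 0.0417 without the filter). This call was lost under DESeq2 and without any 1 of the B1415_0 libraries or B1415_late replicate 2, with log2 values of 0.93 to 1.23 over the libraries left out in turn. DFR had at most 2 counts in any library and was tested nowhere; in RP_late, with 0 counts in 3 libraries, the level of 3 counts would be 0.0729 CPM, and the two-sided 95% Poisson limit was 0.0896 CPM.

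**Figure D4:**
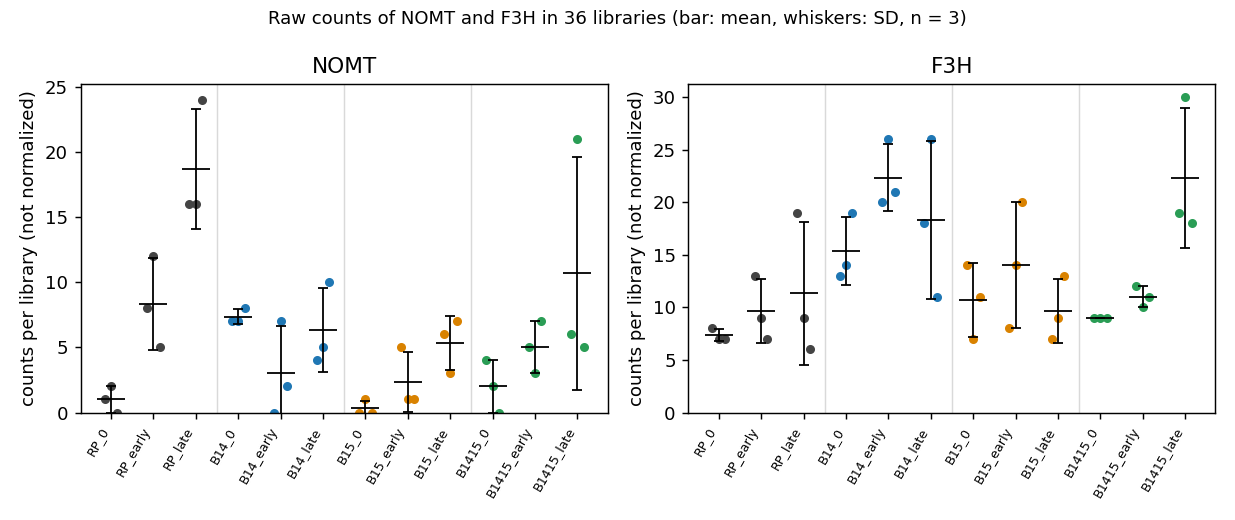
Raw counts per library, not normalized, of NOMT (left) and F3H (right) in 36 libraries by line and stage; points are libraries, long bars means and whiskers the SD (n = 3), linear axes from 0. NOMT reaches 16 to 24 counts in RP_late against 0 to 2 in RP_0 and stands at 7 to 8 counts in B14_0.

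The second question was how the NILs differed from RP at the same stage. The 3 NILs of a stage share the RP libraries. Of 63 pairs of member and comparison, 46 were tested, and 10 were higher and 4 lower than in RP. B15 accounted for 7 of these calls, all of them higher. In B15_0 against RP_0 all 4 tested members were higher, where 71.7% of all tested genes were called and 35.7% were called higher. CHI was 0.90 ± 0.09 higher on the log2 scale (1.86-fold, adjusted p = 1.24e-07), FNSII 0.73 ± 0.08, F2H 0.57 ± 0.07 and CHS 0.35 ± 0.07. In B15_early against RP_early, 3 of 5 were higher (58.4% of genes called, 28.7% higher), with CHI at 0.84 ± 0.11, F2H at 0.63 ± 0.09 and FNSII at 0.58 ± 0.09, and CHS was called without B15_early replicate 1 (0.21). The green list was higher in these groups too, at 18838 to 21796 CPM in B15_0 and 17452 to 22393 CPM in B15_early; its part in these differences was not tested. In B15_late against RP_late 0 of 6 were called by edgeR, where 0.712% of genes were called. At an unadjusted p below 0.05 there were 2, and DESeq2 called 0; CHI was at 0.30 ± 0.13 and NOMT at -1.95 ± 0.44 (adjusted p = 0.0852; -2.07 without B15_late replicate 3). NOMT passed the filter there only through RP_late, where it is high.

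B14 had calls against RP at the early and late stages. In B14_0 against RP_0, 0 of 5 tested members were called by edgeR, in a comparison where 0.0933% of genes were called. Among them 1 had an unadjusted p below 0.05, and DESeq2 called 0. That member was F3H, which passed the filter there only through B14_0, where it is high. NOMT, below the filter there, had 22 counts against 3 (ratio 7.54, 95% counting interval 2.26 to 39.3; exact permutation p = 0.1, the smallest possible). In B14_early against RP_early, 3 of 5 were higher (36.6% of genes called, 16.8% higher). F3H was 1.24 ± 0.41 higher on the log2 scale (adjusted p = 0.0258), with 20, 21 and 26 counts against 7, 9 and 13, a call lost under DESeq2 (adjusted p = 0.0541). F3H reached the filter's minimum in 3 of 3 B14_early and 1 of 3 RP_early libraries. It thus passed through B14_early, where it is high, so its place among the 3 carries no weight of its own. Without the filter its adjusted p was 0.0288. CHI and F2H were each 0.29 higher. All 3 calls were lost without B14_early replicate 2, and those of CHI and F2H in the single fit (adjusted p of 0.239 and 0.0887). CHI was also lost without RP_early replicate 1 or 2 or B14_early replicate 3 (0.19 to 0.39 over the libraries left out in turn), F2H without RP_early replicate 1 or B14_early replicate 3 (0.22 to 0.36), and F3H without RP_early replicate 2 or 3 (1.04 to 1.57). FNSII was called without B14_early replicate 1 (0.25). In B14_late against RP_late, 3 of 6 were lower (10.6% of genes called, 4.62% lower). FNSII was -0.64 ± 0.11 (adjusted p = 0.00454), CHS -0.66 ± 0.15 (adjusted p = 0.0157) and NOMT -1.74 ± 0.44 (adjusted p = 0.0275). NOMT passed the filter there only through RP_late, where it is high, and without the filter its adjusted p was 0.0209; in the single fit of 36 libraries it was 0.0627. The CHS and NOMT calls were lost without RP_late replicate 2 or B14_late replicate 2, CHS also without RP_late replicate 1 or B14_late replicate 3, and NOMT also without RP_late replicate 3. With each library left out in turn, CHS ran from -0.88 to -0.54 and NOMT from -2.18 to -1.52, and FNSII was called each time. CHI, at -0.43 ± 0.17 (adjusted p = 0.144), was called without B14_late replicate 1 (-0.67).

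Against RP, B1415 had 1 call in these genes. In B1415_0 against RP_0, 0 of 4 were called by edgeR (6.81% of genes), 0 had an unadjusted p below 0.05 and DESeq2 called 0, while CHI was called without B1415_0 replicate 2 (-0.30). In B1415_late against RP_late 0 of 6 were called by edgeR (0.0371% of genes), 1 had an unadjusted p below 0.05 and DESeq2 called 0. In B1415_early against RP_early, 1 of 5 was lower (18.6% of genes called, 9.3% lower): CHS was -0.20 ± 0.07 (adjusted p = 0.0381), a call kept without RP_early replicate 2 and lost without each other library (-0.25 to -0.16). That call was also lost in the single fit of 36 libraries (adjusted p = 0.45). NOMT was at -1.18 ± 0.52 in B1415_late against RP_late, with 5, 6 and 21 counts against 16, 16 and 24 (adjusted p = 0.376). The value was -2.04 without B1415_late replicate 2, the library with 21 counts, and -0.86 without replicate 3. NOMT reached the filter's minimum there in 3 of 3 RP_late and 1 of 3 B1415_late libraries, so it passed through RP_late, where it is high.

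**Figure D5:**
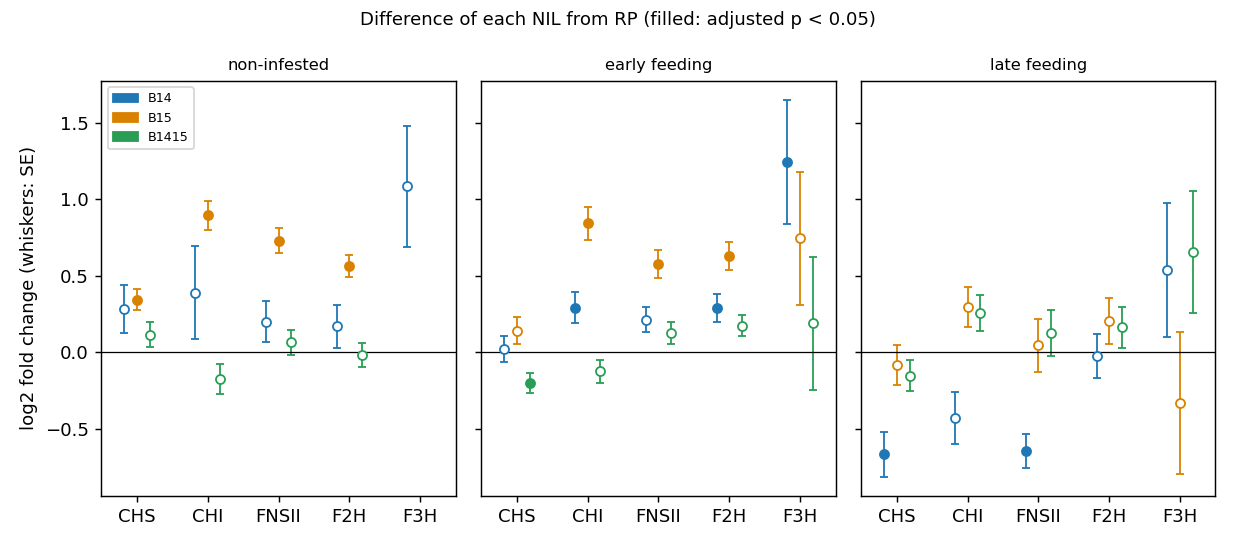
Log2 fold change of each NIL against RP at the same stage for CHS, CHI, FNSII, F2H and F3H where tested; points are edgeR estimates, whiskers their SE, colours the NILs, and filled points have an adjusted p below 0.05. B15 lies above RP for CHI, FNSII and F2H non-infested and early, and B14 lies below RP for CHS and FNSII late.

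The third question was whether the pyramided line differed from each single-gene line. Of 42 pairs, 29 were tested, 1 was higher and 10 lower in B1415. Against B15_0, all 4 tested members were lower in B1415_0 (61.4% of genes called, 30.7% lower), with log2 fold changes of -1.09 ± 0.13 for CHI, -0.69 ± 0.10 for FNSII, -0.60 ± 0.08 for F2H and -0.25 ± 0.09 for CHS. Against B15_early, 4 of 5 were lower in B1415_early (48.6% of genes called, 24.2% lower), with CHI at -1.01 ± 0.10. The CHS call in B1415_0 against B15_0 was lost without replicate 1 or 3 of either group (-0.30 to -0.15) and in the single fit (adjusted p = 0.097). At the late stage 0 of 5 differed between B1415 and B15 by edgeR, and 0% of all genes did, with 264 genes at an unadjusted p below 0.05; 1 of the 5 members was among them and DESeq2 called 0.

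Against B14, B1415_early had 2 of 5 members lower (26.6% of genes called, 12.7% lower), CHI at -0.43 ± 0.09 and CHS at -0.24 ± 0.08. Both calls were lost in the single fit of 36 libraries (adjusted p of 0.133 for CHI and 0.165 for CHS). The CHS call was kept without B14_early replicate 1 and lost without each other library (-0.31 to -0.20), while F3H (-1.22) and F2H (-0.21) were called without B14_early replicate 1. In B1415_late against B14_late 1 of 5 was higher (7.46% of genes called, 4.33% higher): FNSII at 0.78 ± 0.17 (adjusted p = 0.0305), with the call lost without B14_late replicate 2 or 3 or B1415_late replicate 1 or 2 (0.64 to 0.94). CHI, at 0.69 ± 0.20 (adjusted p = 0.06), was called without B14_late replicate 1 or B1415_late replicate 3 (0.52 to 0.95), and CHS, at 0.52 ± 0.18 (adjusted p = 0.0969), without B14_late replicate 1 (0.74). In B1415_0 against B14_0, 0 of 5 were called by edgeR, where 0.0927% of genes were called, 0 had an unadjusted p below 0.05 and DESeq2 called 0.

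The last question was whether a NIL responded to feeding by a different amount than RP. Of 33 tested pairs, 4 were called, and all belonged to the late stage of B15 (46.4% of genes called, 23.8% in the same direction). There the log2 change in B15 minus that in RP was -0.67 ± 0.18 for CHI (adjusted p = 0.00492), -0.75 ± 0.20 for FNSII (adjusted p = 0.00488), -0.49 ± 0.15 for CHS (adjusted p = 0.0119) and -0.43 ± 0.17 for F2H (adjusted p = 0.0421). These 4 members were called higher in B15_0 than in RP_0, and none was called in B15_late against RP_late. The F2H call was lost without any 1 of the RP_0 or B15_0 libraries, RP_late replicate 1 or 2, or B15_late replicate 1 (-0.52 to -0.26), and under DESeq2 (adjusted p = 0.0588). In the single fit of 36 libraries the FNSII call was kept and those of CHS, CHI and F2H were lost (0.0602, 0.0898 and 0.126). For B14 at the late stage, the differences of CHS (-0.99 ± 0.24, adjusted p = 0.0967) and FNSII (-0.88 ± 0.18, adjusted p = 0.0724) missed the threshold in a test where 0.238% of genes were called. Both were called without B14_0 replicate 3, at -0.79 (adjusted p = 0.0338) and -0.73 (adjusted p = 0.0106), and also without B14_late replicate 1; DESeq2 called 3 members in that test. The early interactions of B14, B15 and B1415, and the late one of B1415, had 0 members called by edgeR, in tests where 0.0121%, 4.5%, 0.646% and 0.0279% of genes were called. At an unadjusted p below 0.05 there were 0, 1, 1 and 1 members, and DESeq2 called 0 in each.

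The well-counted members moved together to different degrees. Over the 12 group means, which share libraries and scaling, Pearson's r was 0.971 for CHI with FNSII, 0.959 for CHI with F2H and 0.961 for FNSII with F2H. CHS correlated with them at 0.612 to 0.632. Other genes were closer: among 22824 other genes with a mean of at least 1 CPM, FNSII ranked 287 in likeness to CHI. The closest genes were Os02g0600200 to CHS (r = 0.962), Os03g0431100 to CHI (0.995), Os06g0564100 to FNSII (0.995) and Os02g0656600 to F2H (0.991).

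The wider pathway was read from a list of 31 further identifiers for the entry, core, flavonol and anthocyanin, decoration and regulator steps. The assignments were not checked against an annotation, and the genes are given by identifier unless the study names them. In RP_late, 15 of 23 tested genes fell and 6 rose, with a median log2 fold change of -0.65 where all tested genes had -0.01 and 59.2% of them were called. Of 23 tested, 13 fell and 4 rose in B14_late (median -1.24, against 0.05 and 41.1% called over all genes), 15 and 2 in B15_late (-1.16, against 0.01 and 61.9%), and 14 and 3 in B1415_late (-0.65, against 0.02 and 37.2%). Of the 23 genes tested in any line, 12 fell late in all 4 lines and 2 rose in all 4. The share of all genes that did so was not computed, so these counts are a description only. At the early stage 13 of 23 fell and 4 rose in RP (43% of all genes called, 21.7% as falls), 10 of 21 fell and 1 rose in B15 (23.9%, 12.4% as falls), and 11 of 22 fell and 2 rose in B1415 (27%, 13.1% as falls). In B14 2 of 21 fell and 0 rose, against 1.55% of all genes called. The tallies per gene that follow are a description too, as the share of all genes called as often was not computed. The 8 feeding comparisons share the non-infested groups, and listed genes called in few comparisons are not named. Among core genes, Os11g0116300 fell in 8 of 8 feeding comparisons, with log2 fold changes of -2.21 to -0.71, and Os12g0115700 in 8 of 8, at -3.19 to -0.81. Os10g0320100 and Os10g0317900 fell in 7 of 8. Of the entry genes, Os08g0245200 (4-coumarate CoA ligase, which supplies the coumaroyl starter) and Os02g0697400 each fell in 7 of 8, Os06g0656500 in 6 and Os05g0320700 in 4. Further on, Os06g0192100 (similar to a UDP-glucose flavonoid glucosyltransferase), Os08g0157500 and Os06g0205100 fell in 7 of 8, Os04g0557800 in 6, Os06g0288300 in 5 and Os02g0767300 in 4. Other listed genes went up: Os04g0630800 rose in 7 of 8 feeding comparisons, by 0.52 to 1.65, and Os10g0575000 in 4 of 8. The sparse Os03g0259400 (mean 1.41 CPM) rose in 5 of the 5 in which it was tested, by 1.80 to 3.78. It was tested against RP in no comparison of non-infested groups, so it passed the filter through fed libraries, where it is high. Its rises, which are among those counted for the list, carry no weight of their own. In the line comparisons, 12 of 21 tested genes were higher and 1 lower in B15_0 than in RP_0, where 35.7% of all genes were higher. In B15_early 14 of 23 were higher and 3 lower (28.7% of all genes higher), and in B14_early 10 and 3 of 23 (16.8% higher). Os10g0536400 rose in 3 of 8 feeding comparisons, fell in 0, and was higher than in RP in 5 of 9 line comparisons.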

How the data were processed

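The authors deposited whole-number counts per rice gene, not normalized, for 36 libraries. Per the paper's methods and the submitters' processing notes, clean reads were aligned with HISAT2 2.0.4 to IRGSP-1.0 and counted with HTSeq; its version and strand setting are not given in the sources used here. Unstranded counts cannot separate a gene from an antisense partner. The library kit, the sequencer and one infestation time differ between the paper and the labels.

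Tests were run with edgeR 4.0.16 (limma 3.58.1) under R 4.3.3. For each of 23 pairs of groups, the 6 libraries were fitted alone (filterByExpr with a minimum count of 10, TMM, quasi-likelihood test), with Benjamini-Hochberg adjustment over all genes tested, and called at an adjusted p below 0.05. Line by stage interactions used 12 libraries. SE is the log2 fold change divided by the root of F. Members below the filter were tested by exact permutation of mean CPM.

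The 7 members and the lists were chosen with earlier results of these data known. All members were named; of the 31 pathway genes, those called in at least 4 of 8 feeding or 4 of 9 line comparisons were named. Replicates were biological, so p-values measure the spread between these pools of seedlings. Same-numbered libraries did not deviate together: correlations ran from -0.573 to 0.241 and were all above 0.1 in 0 of 23 comparisons, so no block was used. The procedure was tested on simulated data. Alternatives were DESeq2 1.42.0, its size factors, no filter, the replicate block, a single fit, the paper's definition of a differentially expressed gene (unadjusted p below 0.05 and over 2-fold) and each library left out.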

Additional observations from a re-analysis of the deposited data

Results flagged for a closer look

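In B15, 4 members changed with late feeding by a different amount than in RP, by edgeR's test of the interaction of line and stage, in which 46.4% of all tested genes were called and 23.8% were lower. The log2 change in B15 minus that in RP was -0.67 for CHI (adjusted p = 0.00492), -0.75 for FNSII (adjusted p = 0.00488), -0.49 for CHS (adjusted p = 0.0119) and -0.43 for F2H (adjusted p = 0.0421). Without B15_late replicate 3 the values were -0.71 for CHI, -0.97 for FNSII, -0.47 for CHS and -0.51 for F2H, and all 4 were called. In the single fit of 36 libraries FNSII was called, and CHS (adjusted p = 0.0602), CHI (0.0898) and F2H (0.126) were not. F2H was also lost under DESeq2 (0.0588), with its size factors in edgeR (0.0586), and without any 1 of several libraries. In B15_0 against RP_0 the log2 fold changes were 0.90 for CHI, 0.73 for FNSII, 0.57 for F2H and 0.35 for CHS, all called. In B15_late against RP_late they were 0.30, 0.05, 0.21 and -0.08 in the same order, none called. The 4 interaction tests share the same 12 libraries.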

How the results depend on the processing

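Of 54 called pairs of member and comparison, 0 reversed under any alternative, 32 were called under every alternative that kept the adjusted p, and 15 were lost when at least 1 single library was left out. Under the paper's definition (unadjusted p below 0.05 and over 2-fold), 39 were lost, as most member changes were under 2-fold: the feeding calls were 2 higher and 9 lower (from 5 and 20), the line calls 2 higher (from 10), the B1415 calls against the single-gene NILs 0 higher and 3 lower (from 1 and 10) and the interactions 1 lower (from 4). All 4 interaction calls of B15_late were lost. The 1 lower interaction was NOMT in B14_late, 1 of 5 pairs gained that had no call at an adjusted p below 0.05. The others were F3H in B14_0 against RP_0 and B1415_early against B14_early, and NOMT in B15_late and B1415_late against RP_late. In each of these 5 pairs the group where the gene was high was enough to pass the filter, so the gains carry no weight of their own. The paper's definition called 3.27% to 27.6% of all genes in the feeding and 1.96% to 24.4% in the line comparisons. The single fit of 36 libraries lost 17 of the 54 calls (DESeq2 lost 3): 7 for feeding, 4 for lines, 3 for B1415 against the single-gene NILs and 3 interactions. It gave 2 lower line calls (from 4). The single fit also called the late B14 interactions of CHS, FNSII and NOMT, which had missed the threshold. The 1 higher B1415 call became 3 in the single fit and under DESeq2, and 2 without the filter and without B15_late replicate 3 and B1415_late replicate 3; the cause was not tested. Leaving out 1 library at a time gave 4 to 6 higher and 19 to 21 lower feeding calls, 7 to 11 higher and 2 to 5 lower line calls, 0 to 3 higher and 9 to 12 lower B1415 calls, and 3 to 7 lower interactions with 0 higher; 7 came without B14_0 replicate 3 or B14_late replicate 1, and 2 lower line calls without RP_late replicate 2 or B14_late replicate 2. The late mean lay below the non-infested mean in 19 pairs of the 7 members and 4 lines, and in 17 to 19 without replicate 1, 2 or 3. These pairs include the sparse means of F3H in B15, NOMT in B14, and DFR in RP and B1415. The share over all genes was not computed. With the replicate block, which the numbers do not justify, calls were 4 higher and 19 lower for feeding, 11 and 5 for lines, 1 and 9 for B1415 and 3 lower interactions. Depth limited F3H, NOMT and DFR: DFR was tested in 0 comparisons and NOMT in 1 of 8 feeding comparisons.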
